A study of Rattus norvegicus with 12 samples.

Results

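Oxidative phosphorylation subunit genes are described here in knee articular cartilage of rats. A set of 34 nuclear-encoded genes was chosen by name, covering respiratory complexes I to V and cytochrome c. Of the 34 genes, 31 had a probe set annotated to that gene alone, out of 14218 such genes on the array. Of these 31 genes, 29 passed a filter on low values (a log2 value above 4 in at least 3 of the 12 arrays), against 9247 genes in all. Rats underwent an operation leading to osteoarthritis (OA) or a sham operation, and cartilage was taken 2 or 8 weeks later. Each of the 4 groups held 3 arrays: OA at 2 weeks, sham at 2 weeks, OA at 8 weeks and sham at 8 weeks. Strain, sex, age and the details of the operation are not given in the sources used here. No source says whether the arrays of a group came from separate animals, so p-values measure only the spread between these samples, which may be technical.

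Oxidative phosphorylation is the final stage of respiration, carried out in the inner membrane of mitochondria. Complexes I and II take electrons from NADH and succinate, complex III passes them to cytochrome c, and complex IV hands them to oxygen. Complexes I, III and IV pump protons, and complex V, the ATP synthase, uses the returning protons to make ATP. Chondrocytes live in a tissue without blood vessels and make much of their ATP by glycolysis, while skeletal muscle is rich in mitochondria.

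The labelled tissue was checked against marker genes. The mean of 7 chondrocyte markers, such as Col2a1 and Acan, lay between 14.53 and 15.16 on every array. Single markers could still differ, as 1 of the 7 was called lower in OA than in sham at 8 weeks (adjusted p = 0.0296, limma fit described further on). Of their 8-week differences 3 lay above 0 and 4 below, and without OA replicate 1 at 8 weeks 0 were called. Markers of other cells differed between groups and arrays. The mean of 15 skeletal muscle markers ranged from 4.90 to 7.99 in OA and from 5.46 to 6.69 in sham at 2 weeks, and from 9.78 to 14.55 in OA and from 5.58 to 10.53 in sham at 8 weeks. At 8 weeks the mean of 14 macrophage markers ranged from 6.65 to 6.79 in OA and from 7.68 to 10.35 in sham. The means of 5 osteoclast markers ranged from 9.48 to 10.82 in OA and from 12.53 to 12.87 in sham at 8 weeks, and those of 8 osteoblast and osteocyte markers from 10.44 to 11.18 and from 11.97 to 12.27. One array stood apart for the subunit genes, replicate 1 of the OA group at 8 weeks, which also had the highest muscle mean. Medians and counts of the members at 8 weeks are also given without it. That array was picked after the members' values were seen, so calls without it are not independent of that choice. In tissue RNA, a change in the share of a cell type and a change in RNA per cell cannot be told apart.

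Promoter sequences of the members were searched for short motifs. RefSeq promoters (build GRCr8) were held for 29 of the 31 measured members, and the 250 bases before each start were searched on both strands for 5 motifs of known regulators of mitochondrial genes. The NRF-1 motif, GCGCA and GCGC with 1 base of any kind between them, lay in 4 members (13.8%; Atp5po, Ndufa5, Sdha and Uqcrc1), against 4.17% of the promoters of 27457 genes. The ETS motif CCGGAAG, bound by GABP among other factors, lay in 8 members (27.6%; Atp5f1a, Cox5b, Cox8a, Ndufs1, Sdhb, Sdhd, Uqcrc2 and Uqcrh), against 7.74%. The CRE motif TGACGTCA lay in 1 member (3.45%; Cox8a), against 1.7%. The ERR motif TCAAGGTCA and the YY1 motif AAGATGGCG lay in 0 of the 29, against 0.368% and 0.736%. None of the 12 members with an NRF-1 or ETS match held both. A match is a description of letters, not a site or a cause. The stretches printed here are from members named further on, 5′ to 3′ on the gene's strand, with the match in capitals.

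Sdha, NRF-1, chr1:30764439-30764498, plus strand: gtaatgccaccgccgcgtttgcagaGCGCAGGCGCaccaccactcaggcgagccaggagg
Ndufa5, NRF-1, chr4:53971236-53971292, minus strand: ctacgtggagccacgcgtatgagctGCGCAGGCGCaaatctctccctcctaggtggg
Uqcrc1, NRF-1, chr8:118468134-118468193, plus strand: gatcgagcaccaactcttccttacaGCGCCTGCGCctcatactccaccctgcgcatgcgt
Atp5po, NRF-1, chr11:44657508-44657567, minus strand: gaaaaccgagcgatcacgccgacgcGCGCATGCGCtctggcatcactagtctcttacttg
Sdhb, ETS, chr5:158547801-158547857, plus strand: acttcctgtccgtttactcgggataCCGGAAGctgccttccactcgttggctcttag
Uqcrc2, ETS, chr1:184599187-184599239, plus strand: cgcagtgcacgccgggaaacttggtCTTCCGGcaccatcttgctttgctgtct
Cox8a, ETS, chr1:213833649-213833705, minus strand: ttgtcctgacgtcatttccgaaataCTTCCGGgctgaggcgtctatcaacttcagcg
Cox8a, CRE, chr1:213833667-213833724, minus strand: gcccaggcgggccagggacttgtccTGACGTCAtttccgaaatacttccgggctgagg

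The Sdha and Ndufa5 stretches carry the NRF-1 motif on the gene's strand, and the Uqcrc1 stretch carries its reverse complement. In Atp5po the match reads the same on both strands. Cox8a is the member with both an ETS and a CRE match, and the 2 stretches printed for it overlap.

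The comparison of OA with sham addressed whether cartilage expression of the subunit genes differs after OA surgery. None of the 29 tested members was called in either direction at 2 or at 8 weeks by limma (adjusted p under 0.05, Benjamini-Hochberg method, 15934 probe sets). At 2 weeks 0% of all probe sets were called, so the members' 0 of 29 matched the background. At 8 weeks 3.46% of all probe sets were called (241 higher and 311 lower). With OA and sham arrays of the same number and time taken as pairs, 6.51% were called at 8 weeks, and still 0 of 29 members at either time. At an unadjusted p under 0.05 the members numbered 0 at 2 weeks and 1 at 8 weeks (Cox8a, lower), beside 1.69% and 21.5% of all probe sets.

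The differences were small on the log2 scale. At 2 weeks they ran from -0.12 (Ndufs3) to 0.16 (Uqcrfs1) around a median of 0.00, with 16 of 29 above 0, and the median over all probe sets was -0.01 with 45% above 0. At 8 weeks they ran from -0.29 (Cox8a) to 0.18 (Sdha) around a median of 0.02, with 18 of 29 above 0, and all probe sets had a median of 0.01 with 51.1% above 0. The 2-week direction changed with the array left out, since without OA replicate 1 the median was -0.05 with 4 of 29 above 0 (39.4% of all probe sets), and without OA replicate 2 it was 0.07 with 25 of 29 (55.9%). The median size of a difference, sign aside, was 0.06 at 2 weeks and 0.05 at 8 weeks among the members, and 0.09 and 0.19 among all probe sets. The precision was like that of other probe sets, with a median standard error of 0.17 in the members and 0.17 in all probe sets.

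The intervals set a bound only under the model, which took 1 spread per probe set from all 4 groups. A fit of only the groups compared gave a median member standard error of 0.110 at 2 weeks and 0.195 at 8 weeks, against 0.171 here. The 8-week bounds below may thus be too narrow, most of all for members that varied widely in OA at 8 weeks. All 29 of the 95% intervals lay between -1 and 1 at both times, and 21 at 2 weeks and 19 at 8 weeks lay between -0.5 and 0.5. At 2 weeks the lowest bound was -0.71 (Ndufv1, an OA to sham ratio of 0.611) and the highest 0.90 (Uqcrfs1, a ratio of 1.87). At 8 weeks they were -0.79 (Uqcrfs1, a ratio of 0.577) and 0.74 (Ndufs1, a ratio of 1.67). The average over both times and the change of the OA effect from 2 to 8 weeks also gave 0 of 29 called, against 0.364% and 0.138% of all probe sets. With the pairs they gave 0 of 29 too, against 0.69% and 0.42%. At an unadjusted p under 0.05 the counts were 0 and 1 (Cox8a), against 12.4% and 11%.

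**Figure D1:**
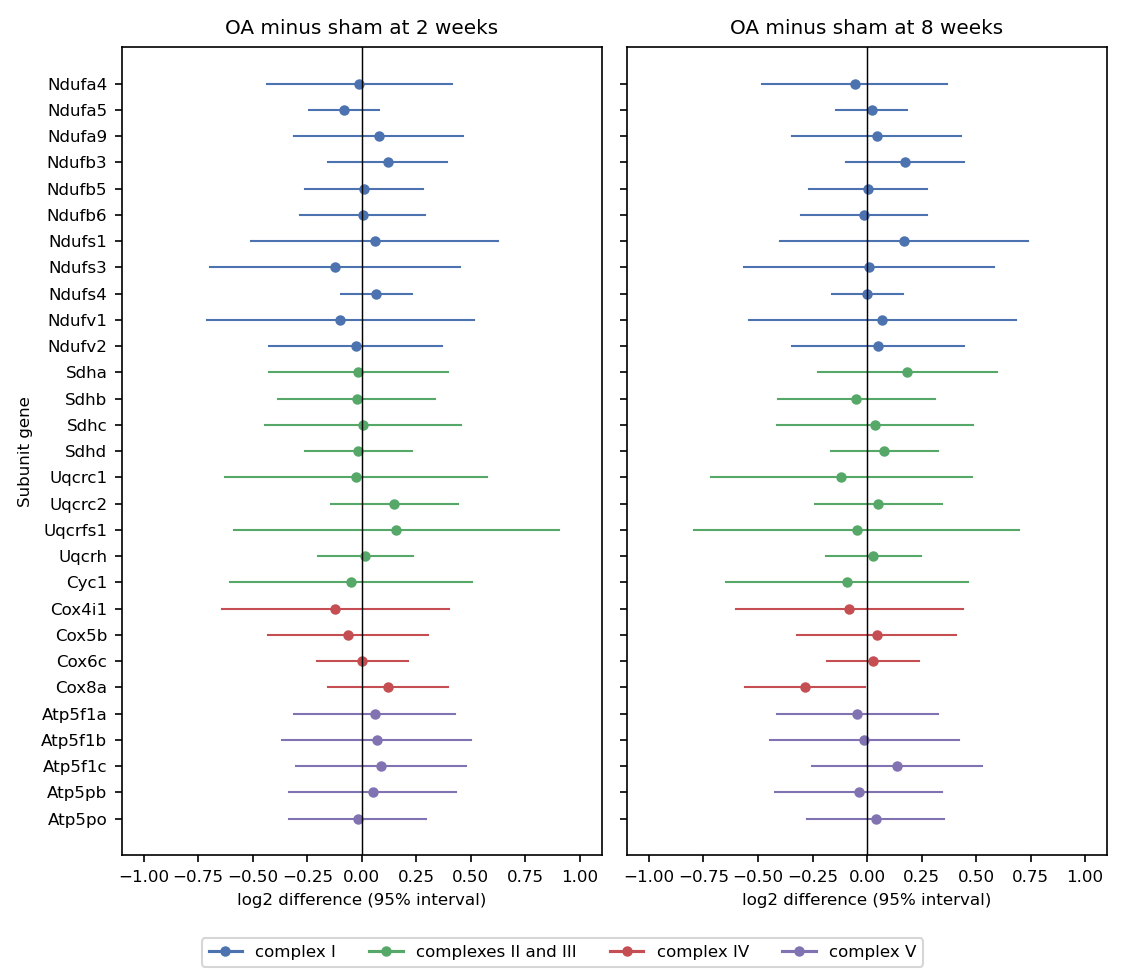
Log2 difference of OA minus sham at 2 weeks (left) and at 8 weeks (right) for the 29 subunit genes, coloured by complex. Points are limma estimates from 3 arrays per group and lines their 95% intervals. At 8 weeks the interval of Cox8a (-0.56 to -0.01) lies below 0, and all other intervals include 0.

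The members moved together on single arrays more than they did between groups. OA replicate 1 at 8 weeks gave the highest of the 12 values in 24 of 29 members, against 17.1% of all probe sets, and the highest value of its group in 27 of 29, against 35.5%. It lay above the mean of the other 2 arrays of its group by a median of 0.60 over the members, while the median over all probe sets was -0.01. The excess was largest for Uqcrfs1 (1.33), Ndufs3 (1.13), Ndufs1 (1.06) and Ndufv1 (1.05), which come from complexes I and III. Only Cox8a (-0.08) and Ndufa5 (-0.02) lay below that mean.

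**Figure D2:**
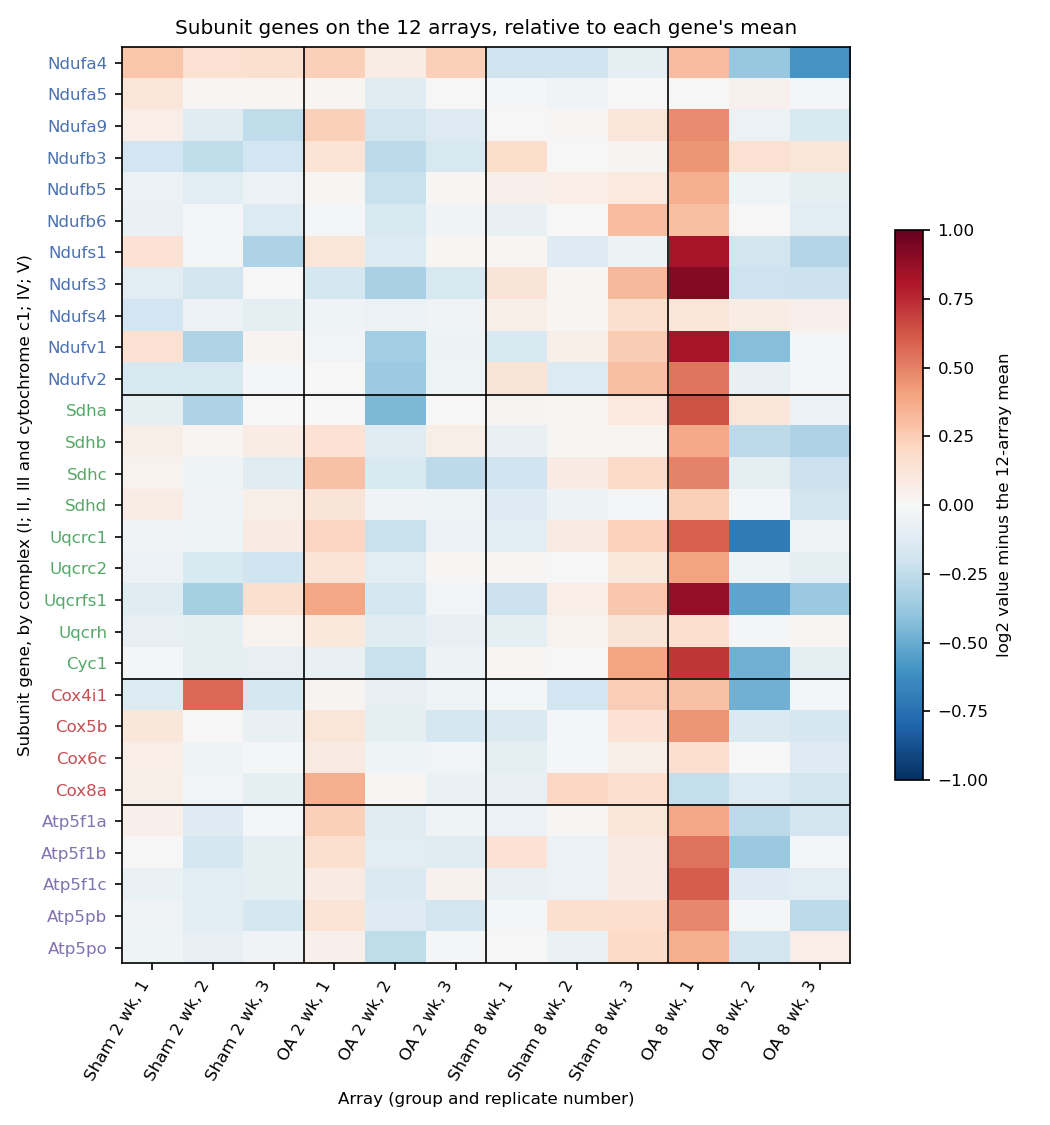
Log2 value of each of the 29 subunit genes (y axis, grouped by complex) on each of the 12 arrays (x axis), minus the gene's mean over the 12 arrays. The column of OA replicate 1 at 8 weeks is red in nearly every gene, and it holds the highest value in 24 of 29.

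Array means over the 29 members show the same. At 2 weeks the OA arrays averaged 12.40, 12.13 and 12.24 and the sham arrays 12.28, 12.21 and 12.24 (replicates 1, 2 and 3, the order kept throughout). At 8 weeks the OA arrays averaged 12.73, 12.12 and 12.16 and the sham arrays 12.26, 12.29 and 12.43. OA at 8 weeks thus held the highest array of all and 2 of the 3 lowest, and the OA and sham ranges overlapped at each time. The SD was largest in that group for 23 of 29 members, against 31.7% of all probe sets. Its median member SD was 0.35, against 0.13 in OA at 2 weeks, 0.07 in sham at 2 weeks and 0.11 in sham at 8 weeks, while over all probe sets the 4 medians were 0.19, 0.18, 0.16 and 0.16. The model took 1 spread per probe set for all 4 groups.

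The muscle mean moved with the members on some arrays and not on others. On OA replicate 1 at 8 weeks it was 14.55, against 11.30 and 9.78 on replicates 2 and 3. In OA at 2 weeks replicate 1 was also the highest array both for the members and for the muscle markers (7.99, against 6.05 and 4.90). In sham at 8 weeks the muscle mean was highest on replicate 1 (10.53, against 5.58 and 7.60), while replicate 3 gave the highest value of the group in 25 of 29 members, against 33.5% of all probe sets. In sham at 2 weeks it was highest on replicate 2 (6.69, against 5.46 and 5.90), while the member mean was highest on replicate 1. At 2 weeks 7 of the 15 muscle markers in sham and 4 in OA lay under the filter level on all arrays of the group. The 2-week muscle means thus rest partly on low values. The chondrocyte mean was 14.65 on OA replicate 1 at 8 weeks, against 14.53 and 14.81 on the other 2 arrays of that group.

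**Figure D3:**
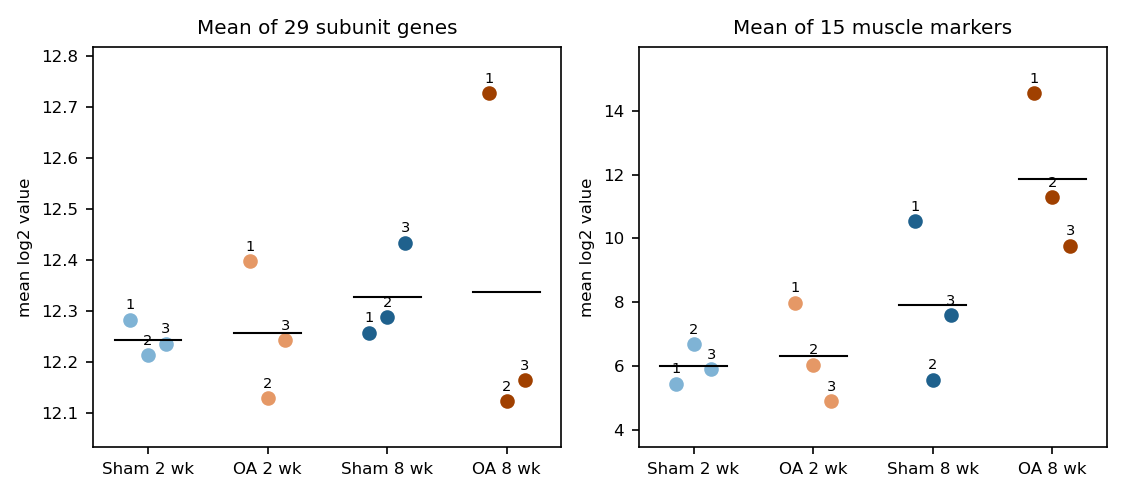
Mean log2 value of the 29 subunit genes (left) and of the 15 skeletal muscle markers (right) on each array, with the replicate number beside each point and the group mean as a line. OA replicate 1 at 8 weeks is the highest array in both panels, at 12.73 and 14.55, while in both sham groups different arrays are highest in the 2 panels. At 2 weeks some of the muscle markers lie under the filter level on all arrays of a group (7 of 15 in sham, 4 in OA).

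The sign of the 8-week difference depended on which array was left out. Without sham replicate 1, 2 or 3 at 8 weeks the member medians were -0.01, -0.01 and 0.08. Then 11, 13 and 24 of 29 lay above 0, against 53.5%, 48.1% and 52.3% of all probe sets. The OA arrays moved the median further. Without OA replicate 1 the median over the members was -0.16 and 27 of 29 lay below 0. Without replicate 2 it was 0.12 with 28 of 29 above 0 (51% of all probe sets), and without replicate 3 it was 0.13 with 25 above 0 (50.9%). Without replicate 1 the medians were -0.14 in complex I, -0.18 in complexes II and III, -0.21 in complex IV and -0.25 in complex V, and the median over all probe sets stayed near 0, with 50.6% above 0. Still 0 of 29 were called without that array, against 2.53% of all probe sets. At an unadjusted p under 0.05, 5 of 29 were lower and 0 higher, against 18.7% of all probe sets in either direction. With array weights, which count arrays that stand apart for less, the 8-week median was -0.09 with 3 of 29 above 0, against 52.2% of all probe sets. The median change of the OA effect from 2 to 8 weeks was then -0.12 with 1 of 29 above 0. Again 0 members were called, against 9.83% of all probe sets for OA minus sham at 8 weeks with these weights. The 5 members at an unadjusted p under 0.05 without replicate 1 were Uqcrfs1 (-0.49 ± 0.21, SE), Cyc1 (-0.43 ± 0.15), Ndufs3 (-0.37 ± 0.11), Ndufa4 (-0.32 ± 0.10) and Sdhb (-0.27 ± 0.09).

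**Figure D4:**
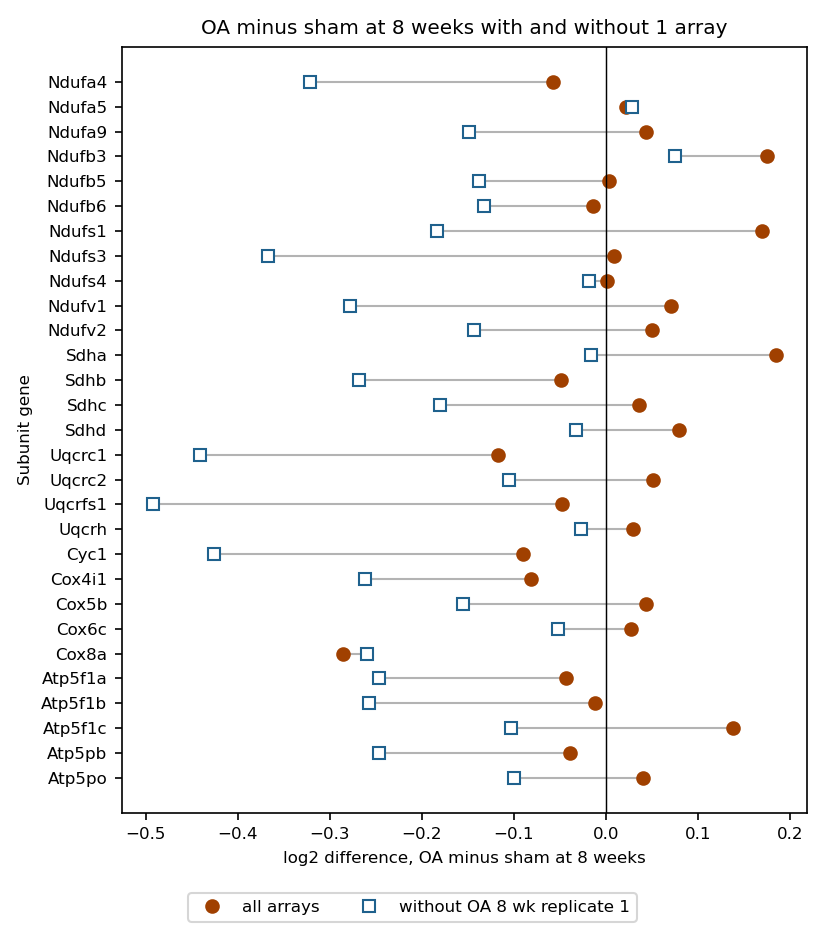
Log2 difference of OA minus sham at 8 weeks for each subunit gene, from all arrays (filled circles) and without OA replicate 1 (open squares). Of 29 genes, 18 lie above 0 with all arrays, and Ndufb3 and Ndufa5 lie above 0 without that array.

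The muscle level as a covariate, centred within each time, gave an 8-week median of -0.22 with 0 of 29 called, against 0.251% of all probe sets. That covariate was itself higher in OA than in sham at 8 weeks, so it overlaps the group difference. Its part in the members' differences was not tested apart from that fit.

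Time was compared within sham and within OA. None of the 29 members was called between 2 and 8 weeks in sham, against 18.7% of all probe sets, and none in OA, against 34.1%. At an unadjusted p under 0.05 they numbered 2 in sham, both higher at 8 weeks (Ndufs4 and Ndufb3), against 26.9%, and 2 in OA (Ndufb3 higher, Cox8a lower), against 43.9%. The sham differences ran from -0.36 (Ndufa4) to 0.28 (Ndufb3) with a median of 0.10 and 22 of 29 above 0, beside a median of 0.08 and 63.8% above 0 over all probe sets. The OA differences ran from -0.40 (Ndufa4) to 0.39 (Ndufs3, 0.01 without OA replicate 1 at 8 weeks) with a median of 0.10 and 21 of 29 above 0, beside a median of 0.09 and 58.3%. Without the filter on low values the medians over all probe sets were -0.02 in sham and 0.01 in OA. Equalizing the array medians gave 0.02 in sham and -0.01 in OA over all probe sets, and 0.03 and -0.01 over the members. The OA direction rested on replicate 1 at 8 weeks, since without it the member median was -0.08 with 10 of 29 above 0 (58.2% of all probe sets). Without that array 2 of 29 members were called, both lower (Ndufa4 and Sdhb), against 30.2% of all probe sets called in either direction. With array weights the member median was -0.03 with 12 of 29 above 0. Sizes, sign aside, had a median of 0.12 in the members in both sham and OA, against 0.20 and 0.34 in all probe sets. Whether arrays of both times were processed together is not given in the sources used here, so time and any processing batch cannot be told apart.

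Without OA replicate 1 at 8 weeks the medians for time in OA were 0.01 in complex I, -0.12 in complexes II and III, -0.16 in complex IV and -0.11 in complex V.

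Values of single members follow, by complex. In complex I, 11 members were tested, with medians of 0.00 at 2 weeks and 0.02 at 8 weeks for OA minus sham, and of 0.15 in sham and 0.13 in OA for 8 minus 2 weeks. Ndufb3, an accessory subunit of the membrane arm, read 13.49, 13.10 and 13.20 in OA and 13.16, 13.10 and 13.17 in sham at 2 weeks, and 13.80, 13.51 and 13.48 in OA and 13.53, 13.35 and 13.38 in sham at 8 weeks. The 8-week arrays lay above the 2-week arrays in sham, OA replicate 1 at 2 weeks reached the 8-week OA values, and OA and sham overlapped at both times. Its differences were 0.17 ± 0.12 for OA minus sham at 8 weeks (adjusted p = 0.448), 0.28 ± 0.12 for time in sham (adjusted p = 0.174) and 0.33 ± 0.12 for time in OA (adjusted p = 0.0587), and the first and the last were 0.07 and 0.23 without OA replicate 1 at 8 weeks. Ndufs4, an accessory subunit needed for a stable complex, read 11.64, 11.63 and 11.65 in OA and 11.50, 11.62 and 11.59 in sham at 2 weeks, and 11.80, 11.76 and 11.74 in OA and 11.74, 11.71 and 11.85 in sham at 8 weeks. Each 8-week array lay above each 2-week array, in OA and in sham, and each 2-week OA array lay just above each 2-week sham array. The time differences were 0.19 ± 0.07 in sham (adjusted p = 0.105) and 0.13 ± 0.07 in OA (adjusted p = 0.208), and OA minus sham at 2 weeks was 0.07 ± 0.07 (adjusted p = 1).

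Ndufa5, an accessory subunit of the arm that takes up electrons, varied least of the members across arrays. It read 10.15, 10.01 and 10.14 in OA and 10.25, 10.14 and 10.15 in sham at 2 weeks, and 10.13, 10.17 and 10.11 in OA and 10.12, 10.10 and 10.13 in sham at 8 weeks, with a difference of -0.08 ± 0.07 for OA at 2 weeks. The 8-week sham arrays lay just below all 2-week sham arrays, and OA and sham overlapped at both times. Ndufa4, first assigned to complex I and later found in complex IV, read 11.77, 11.61 and 11.77 in OA and 11.81, 11.68 and 11.69 in sham at 2 weeks, and 11.84, 11.15 and 10.94 in OA and 11.33, 11.34 and 11.44 in sham at 8 weeks. All 8-week arrays but OA replicate 1 lay below all 2-week arrays. The time differences of -0.36 ± 0.19 in sham (adjusted p = 0.281) and -0.40 ± 0.19 in OA (adjusted p = 0.131) did not pass with all arrays. Without OA replicate 1 at 8 weeks they were -0.36 (adjusted p = 0.0206) and -0.67 ± 0.10 (adjusted p = 0.000957), both called, against 19.8% and 30.2% of all probe sets called without that array. The sham difference does not use that array, so its size stayed the same and only the spread estimated from all groups changed. The array was left out after its values were seen, so neither call is independent of that choice.

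In other complex I members, OA replicate 1 at 8 weeks set the spread. Ndufs3, a core subunit, read 10.42, 10.27 and 10.44 in OA and 10.49, 10.42 and 10.60 in sham at 2 weeks, and 11.51, 10.39 and 10.39 in OA and 10.73, 10.61 and 10.92 in sham at 8 weeks. At 8 weeks replicate 1 of OA lay above all sham arrays and replicates 2 and 3 lay below all of them. Ndufs1, which carries iron-sulfur clusters, showed the same split at 8 weeks, with 12.88, 11.88 and 11.76 in OA and 12.08, 11.93 and 12.01 in sham. Ndufv1, the subunit where NADH is oxidized, read 11.59, 10.35 and 10.75 in OA and 10.62, 10.83 and 11.03 in sham, so replicate 3 of OA lay among the sham values. Ndufa9, Ndufb5, Ndufb6 and Ndufv2 gave 8-week differences between -0.01 and 0.05. Ndufb8 lay between 1.95 and 2.51 on all arrays, under the filter level, and was not tested. Ndufa10 was present only on a probe set shared with other symbols and was not used.

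Complexes II and III gave 9 tested members, with medians of -0.02 at 2 weeks and 0.03 at 8 weeks for OA minus sham, and of 0.07 in sham and 0.08 in OA for time. Sdha, the flavoprotein that oxidizes succinate, read 12.86, 12.41 and 12.87 in OA and 12.76, 12.56 and 12.86 in sham at 2 weeks, and 13.50, 12.99 and 12.81 in OA and 12.89, 12.89 and 12.96 in sham at 8 weeks. The 8-week OA values lay on both sides of the sham values, and replicate 1 was the highest. Its 8-week difference of 0.18 ± 0.18 (adjusted p = 0.614) was -0.02 without that array. Sdhb, the iron-sulfur subunit of complex II, read 12.50, 12.24 and 12.42 in OA and 12.42, 12.38 and 12.43 in sham at 2 weeks, and 12.73, 12.10 and 12.05 in OA and 12.28, 12.37 and 12.38 in sham at 8 weeks. OA at 8 weeks held both the highest and the lowest array for this gene. Its time difference in OA was -0.09 ± 0.16 with all arrays (adjusted p = 0.706) and -0.31 ± 0.09 without replicate 1 at 8 weeks, which was called (adjusted p = 0.0350).

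Uqcrc2, a core protein of complex III, read 12.60, 12.36 and 12.48 in OA and 12.41, 12.31 and 12.27 in sham at 2 weeks, and 12.87, 12.43 and 12.37 in OA and 12.48, 12.46 and 12.58 in sham at 8 weeks. The 2-week difference was 0.15 ± 0.13 (adjusted p = 1), and replicate 2 of OA lay among the sham values. Uqcrfs1, the Rieske iron-sulfur protein, had the largest spread of the members, with 12.39, 11.82 and 11.97 in OA and 11.88, 11.67 and 12.16 in sham at 2 weeks, and 12.88, 11.47 and 11.63 in OA and 11.79, 12.07 and 12.27 in sham at 8 weeks. The OA arrays at 8 weeks lay above and below all sham arrays, and the difference was -0.05 ± 0.33. Cyc1, which encodes cytochrome c1, had the same order in OA at 8 weeks, with 12.01, 10.81 and 11.20 against 11.32, 11.29 and 11.69 in sham. Sdhc and Sdhd, the membrane anchors of complex II, with Uqcrc1 and Uqcrh of complex III, gave 8-week differences between -0.12 and 0.08. Sdhd had a second probe set above the filter level, with differences of 0.07 ± 0.12 at 2 weeks and 0.09 ± 0.12 at 8 weeks. Cycs, which encodes cytochrome c itself, was present only on probe sets shared with other symbols and was not used.

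Complex IV gave 4 tested members, with medians of -0.03 at both times for OA minus sham. Cox8a, a small accessory subunit, read 13.28, 12.93 and 12.85 in OA and 12.98, 12.89 and 12.83 in sham at 2 weeks, and 12.68, 12.78 and 12.74 in OA and 12.84, 13.12 and 13.09 in sham at 8 weeks. At 8 weeks each OA array lay below each sham array, and below each 2-week OA array as well. One member of 29 was separated in this way at 8 weeks, against 25.1% of all probe sets, so the count is no result about the members. Its 8-week difference was -0.29 ± 0.12 (95% interval -0.56 to -0.01, adjusted p = 0.217), its change of the OA effect from 2 to 8 weeks was -0.40 (adjusted p = 0.434), and its time difference in OA was -0.29 (adjusted p = 0.0993). Without OA replicate 1 at 8 weeks the 8-week difference was -0.26 ± 0.14, so its direction did not rest on that array.

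Cox4i1, which regulates the activity of complex IV, read 11.76, 11.65 and 11.69 in OA and 11.60, 12.31 and 11.56 in sham at 2 weeks, and 12.03, 11.26 and 11.72 in OA and 11.72, 11.55 and 11.98 in sham at 8 weeks. Sham replicate 2 at 2 weeks lay above all other arrays, and the 2-week difference of -0.12 ± 0.23 was 0.12 without it. Cox5b, another accessory subunit, read 12.15, 11.93 and 11.85 in OA and 12.14, 12.03 and 11.96 in sham at 2 weeks, and 12.47, 11.88 and 11.86 in OA and 11.89, 12.02 and 12.17 in sham at 8 weeks. All groups overlapped, and its time difference in OA was 0.09 ± 0.16, and -0.11 without OA replicate 1 at 8 weeks. Cox6c gave an 8-week difference of 0.03. Cox5a lay between 2.93 and 3.29 on all arrays, under the filter level, and Cox7a2 was present only on a probe set shared with other symbols.

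Complex V gave 5 tested members, with medians of 0.06 at 2 weeks and -0.01 at 8 weeks for OA minus sham. Atp5f1a, the alpha subunit, read 13.50, 13.14 and 13.22 in OA and 13.31, 13.13 and 13.24 in sham at 2 weeks, and 13.65, 13.00 and 13.08 in OA and 13.20, 13.28 and 13.39 in sham at 8 weeks. Atp5f1c, the gamma subunit of the rotor, read 13.96, 13.74 and 13.92 in OA and 13.81, 13.76 and 13.78 in sham at 2 weeks, and 14.48, 13.75 and 13.77 in OA and 13.80, 13.82 and 13.96 in sham at 8 weeks. For both genes OA replicate 1 at 8 weeks was the highest array, and the other 2 arrays of that group lay below all sham arrays of that time. The differences of OA minus sham at 8 weeks were -0.04 ± 0.17 for Atp5f1a and 0.14 ± 0.17 for Atp5f1c, and -0.25 and -0.10 without that array. Atp5f1b, the catalytic beta subunit, had the same highest array, with 13.90, 12.99 and 13.34 in OA at 8 weeks, and a difference of -0.01.

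The peripheral stalk of complex V was represented by Atp5pb and Atp5po. Atp5pb read 13.37, 13.11 and 13.05 in OA and 13.20, 13.12 and 13.06 in sham at 2 weeks, and 13.71, 13.21 and 12.97 in OA and 13.21, 13.40 and 13.40 in sham at 8 weeks. Its sham arrays were all higher at 8 than at 2 weeks, by 0.21 ± 0.17 (adjusted p = 0.531), while its OA arrays overlapped. Atp5po read 12.74, 12.44 and 12.67 in OA and 12.65, 12.61 and 12.66 in sham at 2 weeks, and 13.05, 12.51 and 12.76 in OA and 12.69, 12.62 and 12.88 in sham at 8 weeks. Its groups overlapped in each comparison, and its time difference in OA was 0.16 ± 0.14 (adjusted p = 0.435), and 0.01 without OA replicate 1 at 8 weeks. Over all complexes, 11 of 29 members had sham arrays that did not overlap between 2 and 8 weeks (8 higher and 3 lower at 8 weeks), against 35.2% of all probe sets (23.9% higher and 11.3% lower), and 2 of 29 in OA, against 46.6%. At 2 weeks 1 member, Ndufs4, had OA and sham arrays that did not overlap, against 5.38%.

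Other genes of the pathway were grouped by role. Of 41 further subunits of complexes I to V, 0 were called for OA minus sham at either time, with medians of -0.01 at 2 weeks and 0.03 at 8 weeks, and with 17 and 22 of 41 above 0. At an unadjusted p under 0.05 limma gave 0 at 2 weeks and 1 at 8 weeks, against 1.69% and 21.5% of all probe sets. Without OA replicate 1 at 8 weeks the 8-week median was -0.08 with 6 of 41 above 0, and 0 were called. At an unadjusted p under 0.05, 4 of 41 were lower, against 18.7% of all probe sets in either direction. Over time 2 of 41 rose in sham, where 18.7% of all probe sets were called, and 3 in OA, where 34.1% were, and 0 fell. In OA the median was 0.08 with all arrays and -0.02 without that array. Atp5me, which encodes a small membrane subunit of the ATP synthase, was 2.02 ± 0.11 higher at 8 weeks in sham (adjusted p = 2.58e-07) and 2.12 ± 0.11 in OA (adjusted p = 1.73e-07). Its arrays lay between 7.20 and 7.66 at 2 weeks and between 9.37 and 9.56 at 8 weeks, in OA and sham alike. Ndufa7 rose by 0.29 in sham (adjusted p = 0.0424) and by 0.39 in OA (adjusted p = 0.00628), and Ndufa11 by 0.42 in OA (adjusted p = 0.0257), a call that ended without OA replicate 1 at 8 weeks (adjusted p = 0.0595). Of 14 genes of the citric acid cycle and pyruvate dehydrogenase, which feed electrons to the chain, 0 were called by limma in the OA and time comparisons with all arrays, and 0 had an unadjusted p under 0.05. Their 8-week median for OA minus sham was -0.01 with 7 of 14 above 0, and without OA replicate 1 it was -0.29 with 2 of 14 above 0 and 0 called. Without that array 4 of 14 were lower at an unadjusted p under 0.05, against 18.7% of all probe sets in either direction. Without that array 1 gene was called lower over time in OA (Idh3a, -0.48 ± 0.15, adjusted p = 0.0346), where 30.2% of all probe sets were called. For Cs, which encodes citrate synthase, a dimmer probe set with a mean of 3.68 was called over time, at 0.83 ± 0.14 in sham (adjusted p = 0.00145) and 1.11 ± 0.14 in OA (adjusted p = 0.000149), while the brightest one, used here, was not. The 2-week means of the dimmer probe set lay under the filter level. It passed the filter through 8-week arrays, so its calls are not independent of the filter and their sizes are not exact.

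Of 31 assembly factors, which build the complexes, 0 were called by limma for OA minus sham at either time. At an unadjusted p under 0.05 there were 0 at 2 weeks and 5 at 8 weeks (2 higher, 3 lower), against 1.69% and 21.5% of all probe sets. The smallest p-values at 8 weeks were those of Timmdc1, a complex I assembly factor (-0.49 ± 0.13, adjusted p = 0.0689), Cox15, which makes heme A (0.49 ± 0.13, adjusted p = 0.0749), and Atpaf1, a chaperone of the ATP synthase (0.35 ± 0.11, adjusted p = 0.117). With OA and sham arrays paired by number, Timmdc1 was called lower (-0.49 ± 0.10, adjusted p = 0.0411). Over time 6 of 31 rose and 1 fell in sham, against 18.7% of all probe sets called in either direction, and 8 rose and 2 fell in OA, against 34.1%, so both counts lay near the background. Cox10, which also acts in heme A synthesis, was higher at 8 weeks by 1.59 ± 0.21 in sham and 1.86 ± 0.21 in OA, and Atpaf1 by 0.71 ± 0.11 and 0.91 ± 0.11. Ndufaf7, a complex I assembly factor, differed by -1.70 ± 0.15 and -1.33 ± 0.15, but its other probe set above the filter level differed by 1.30 ± 0.16 and 1.57 ± 0.16, so its probe sets disagreed in direction. Of 72 mitochondrial ribosomal protein genes, whose products help make the subunits encoded in mitochondrial DNA, 0 were called for OA minus sham. At an unadjusted p under 0.05 by limma 1 was lower at 2 weeks, and 1 was higher and 7 lower at 8 weeks, against 1.69% and 21.5% of all probe sets. Over time 4 rose and 1 fell in sham and 5 rose and 4 fell in OA, fewer than the 18.7% and 34.1% of all probe sets.

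Isoforms and partners of the subunits that are typical of muscle formed another list. Cox6a2, the muscle form of a complex IV subunit, lay between 2.05 and 2.11 on all 2-week arrays. At 8 weeks it read 12.36, 5.23 and 4.21 in OA and 4.69, 4.11 and 4.14 in sham. Ckmt2, the mitochondrial creatine kinase of striated muscle, read 12.57, 8.38 and 5.53 in OA and 6.19, 4.56 and 4.59 in sham at 8 weeks, against 2.33 to 2.48 at 2 weeks. Cox8b, the muscle counterpart of Cox8a, read 8.93, 3.11 and 2.05 in OA at 8 weeks and between 1.89 and 2.60 on all other arrays, and did not pass the filter. Slc25a4, the ADP/ATP carrier that prevails in muscle, read 14.39, 13.49 and 13.30 in OA at 8 weeks and between 13.54 and 13.77 on all other arrays. OA replicate 1 at 8 weeks was the highest array for all 4 of these genes, as it was for 24 of the 29 members. Cox7a1, another muscle form in complex IV, read 5.29, 5.27 and 5.30 in OA and 5.53, 4.90 and 4.85 in sham at 8 weeks, so it did not follow that array.

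None of the 4 genes of this list that passed the filter was called for OA minus sham by limma. At an unadjusted p under 0.05 there were 0 at 2 weeks and 1 at 8 weeks, against 1.69% and 21.5% of all probe sets. Ckmt2 differed by 3.71 ± 1.34 at 8 weeks (adjusted p = 0.153) and Cox6a2 by 2.96 ± 1.63 (adjusted p = 0.330), and without OA replicate 1 by 1.84 ± 0.74 and 0.41 ± 0.27. Over time, Cox7a1 rose by 1.46 ± 0.18 in sham (adjusted p = 0.000201) and 1.79 ± 0.18 in OA (adjusted p = 3.68e-05). Ckmt2 rose by 6.44 ± 1.34 in OA (adjusted p = 0.00423) and Cox6a2 by 5.19 ± 1.63 (adjusted p = 0.0326), which without that array were 4.57 ± 0.74 and 2.65 ± 0.27, both still called. The 2-week arrays of Cox7a1, Ckmt2 and Cox6a2 lay under the filter level, so these genes passed the filter only through 8-week arrays. Their calls over time, with and without OA replicate 1, are thus not independent of the filter, and the sizes of their time differences are not exact.

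**Figure D5:**
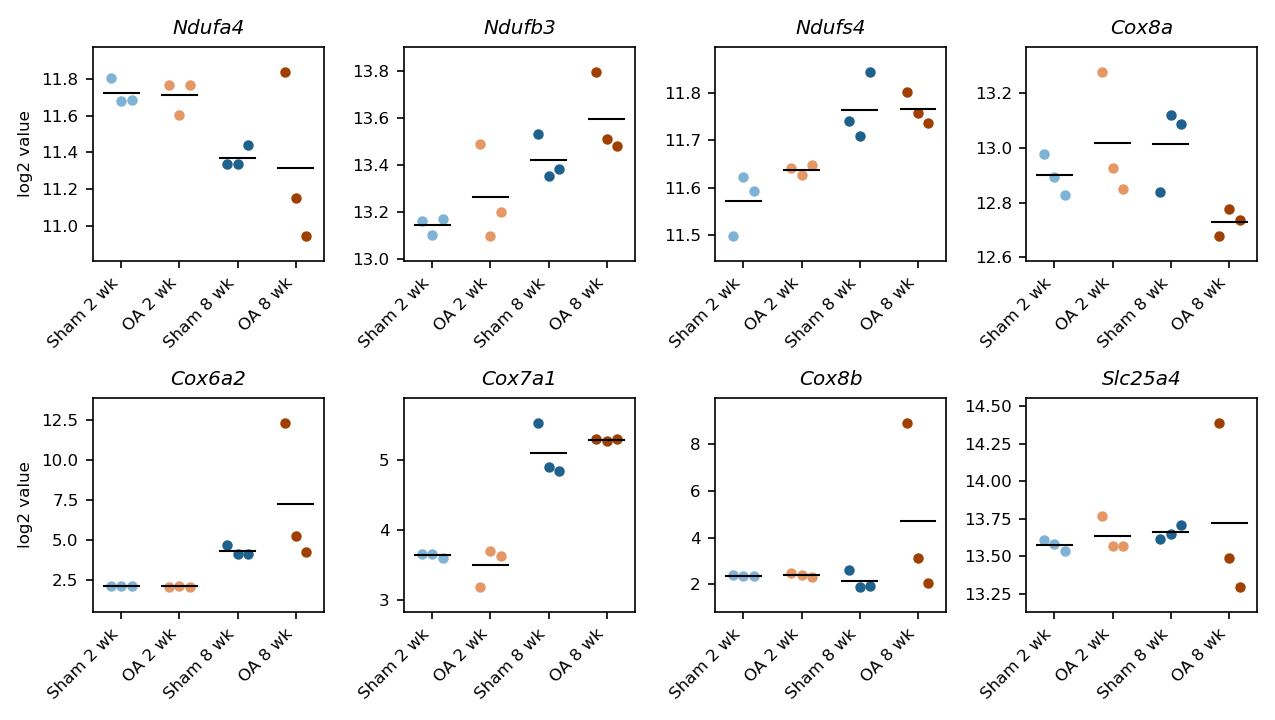
Log2 value on each array (points, replicates 1, 2 and 3 from left to right) and group mean (line) for 4 of the members (top) and 4 genes of the muscle list (bottom), with a y axis of its own for each gene that does not start at 0. Ndufa4, Ndufb3, Cox6a2, Cox8b and Slc25a4 peak on OA replicate 1 at 8 weeks, while all 3 OA arrays of Cox8a at 8 weeks (12.68, 12.78 and 12.74) lie below the sham arrays of that time.

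Regulators of mitochondrial genes gave 9 tested genes of 12. Ppargc1a, a coactivator that drives mitochondrial genes in muscle and other tissues, read 9.57, 6.94 and 6.93 in OA and 4.69, 3.40 and 3.48 in sham at 8 weeks, and lay between 3.76 and 4.15 on all 2-week arrays. All 3 OA arrays lay above all 3 sham arrays at 8 weeks, with replicate 1 of OA the highest. It was the only gene of this list called for OA minus sham, at 8 weeks (3.96 ± 0.62, adjusted p = 0.0126), and was still called without that array (3.08 ± 0.33, adjusted p = 0.00280). With OA and sham arrays paired by number it was also called for the average of both times (2.07 ± 0.20, adjusted p = 0.0247) and for the change of the OA effect (3.77 ± 0.39, adjusted p = 0.0360). However, its other probe set above the filter level differed by 0.43 ± 0.19 (adjusted p = 0.226). That probe set, with a mean of 4.74 over all arrays, was called over time in both sham (3.43 ± 0.19) and OA (3.74 ± 0.19). Its 2-week means lay under the filter level, so it passed the filter through 8-week arrays, and these calls are not independent of the filter. The first probe set differed by 0.04 ± 0.62 over time in sham. The sham mean of the first at 8 weeks (3.86) lay under the filter level, so the size of its difference is not exact. Beside Ppargc1a, the member median at 8 weeks was 0.02 with all arrays and -0.16 without OA replicate 1. In OA over time Ppargc1a and Tfb2m rose and Tfb1m fell (3.81 ± 0.62, 0.63 ± 0.19 and -0.54 ± 0.14), the last 2 being factors of mitochondrial transcription and ribosome maturation. The call of Tfb2m ended without OA replicate 1 at 8 weeks (adjusted p = 0.0847). Nrf1 and Gabpa, which encode the factors of the NRF-1 motif and of a form of the ETS motif, were not called in the OA or time comparisons on their brightest probe sets. A dimmer Nrf1 probe set, with a mean of 4.65, was higher over time in OA (0.46 ± 0.10, adjusted p = 0.00558).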

How the data were processed

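RNA from rat articular cartilage was labelled with biotin and hybridised to 12 Affymetrix arrays, 3 in each of 4 groups, taken from the labels. The deposited values are log2 expression values per probe set, which the authors made with GCRMA, per the submitters' processing notes; its version is not given in the sources used here. GCRMA corrects background and scales the arrays together, so low values are compressed and their differences less exact. The number of arrays limits the precision.

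Probe sets annotated to 1 gene were used for names, with the highest mean where a gene had several. The 57 control probe sets were left out, and 15934 probe sets with a log2 value above 4 in at least 3 arrays were tested with limma 3.58.1 in R 4.3.3 (1 mean per group, 6 contrasts, calls at 0.05). The Benjamini-Hochberg adjustment was made over all tested probe sets within each contrast, and not across contrasts. The fit had 8 residual degrees of freedom, and errors after ± are standard errors. The fit was tested on simulated data with 1 spread per probe set for all groups. That test does not cover a spread that differs between groups, as the members had in OA at 8 weeks, or genes that move together on an array. For a single gene, 3 arrays against 3 cannot give a two-sided exact permutation p below 0.1, so none is reported. Summaries and figures used Python 3.11.15, pandas 2.3.3, numpy 2.4.6, scipy 1.17.1 and matplotlib 3.10.9. Complexes II and III and cytochrome c were pooled to give 4 groups of genes. In each, the 2 genes with the smallest p for OA and the 2 with the smallest p for time were named, and further members were named after their values were seen. The members and lists were chosen with earlier results of these data known. Replicate numbers come from the labels, which do not say what they mark. Within each time all 3 same-numbered pairs of OA and sham arrays deviated together (correlations of deviations from the group means of 0.33 to 0.53 at 2 weeks and 0.12 to 0.24 at 8 weeks). Pairs of unlike number ran from -0.38 to 0.07 at 2 weeks and from -0.27 to 0.14 at 8 weeks, so the 8-week ranges overlapped and the pairing was less clear there. A fit with the same-numbered pairs as a block, which left 4 residual degrees of freedom, was added after the data were seen. Alternatives were filters, scalings, array weights, variance settings, a replicate block, a muscle covariate, the mean of probe sets, only the groups compared, and each array left out.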

Additional observations from a re-analysis of the deposited data

How the results depend on the processing

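The 0 of 29 members called for OA minus sham at 2 weeks and at 8 weeks was 0 under every alternative run. Over time the count moved in some. In sham it was 2 without a filter (Ndufs4 and Cox5a), 1 with array weights (Ndufs4), 1 with the muscle covariate (Ndufb3), 1 from only the groups compared (Ndufa4), and 0 to 1 with each array left out. In OA it was 2 without a filter (Ndufb3 and Cox5a), 2 with array medians equalized (Ndufa4 and Cox8a), 1 with array weights (Ndufa4), 1 with a variance trend and 1 with that trend and robust estimation (Ndufb3 in both), and 0 to 2 with each array left out (2 without OA replicate 1 at 8 weeks, 1 without OA replicate 1 at 2 weeks). Of all probe sets, 18.7% were called in sham with the muscle covariate and 34.6% in OA with array medians equalized. In OA 30.2% were called without OA replicate 1 at 8 weeks and 29.7% without OA replicate 1 at 2 weeks. With a replicate block across both times 1 member was called in OA (Ndufb3, adjusted p = 0.0199 by limma), against 37.1% of all probe sets, and no other count of members called moved. Across times the numbers did not pair the arrays. Of 18 same-numbered pairs 9 correlated above 0.1, and 5 of 12 arrays correlated best with their own number. The replicate block within each time, added after the data were seen, changed no call of a member, and over all probe sets it gave 1037 calls at 8 weeks, 110 for the average of both times (against 58) and 67 for the change of the OA effect (against 22). With the muscle covariate the member median was -0.22 for OA minus sham at 8 weeks and -0.20 for the change of the OA effect. With each array left out these ran from -0.16 to 0.13 and from -0.19 to 0.10. Single genes changed sign with the muscle covariate (at 8 weeks Ndufb3 -0.058, Sdha -0.0389, Atp5f1c -0.117; Cox5b over time in OA -0.0081), array weights (Atp5f1c -0.0119, Cox5b -0.0222) and equalized medians (Cox5b -0.0124). With arrays left out, Cox4i1 ran from -0.25 to 0.12 and Atp5f1a from -0.0491 to 0.13 at 2 weeks, Sdha from -0.0162 to 0.33 and Atp5f1c from -0.10 to 0.26 at 8 weeks, and Cox5b from -0.11 to 0.20 over time in OA. The cause was not tested. Calls over all probe sets at 8 weeks numbered 552, against 362 without a filter, 330 with the mean of probe sets, 825 with quantile normalization, 1567 with array weights, 40 with the muscle covariate and 27 from only the groups compared; over time in sham they numbered 2979, against 6938 without a filter, 1523 with the filter at 6 and 1587 with the mean of probe sets; in OA they numbered 5430, against 9461 without a filter and 2930 with the mean of probe sets. Of those over time, 1984 of 2979 in sham and 3461 of 5430 in OA were higher, against 1510 of 2872 and 2782 of 5593 with quantile normalization and 1745 of 2816 and 2915 of 5507 with equalized medians.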
